A study of Mus musculus with 12 samples.

Results

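The livers of 12 mice were examined for 9 transcription factors that define the hepatocyte, Hnf4a, Cebpa, Cebpb, Cebpd, Foxa1, Foxa2, Foxa3, Onecut1 and Prox1. The factors were picked by name, and 8 of the 9 had a row in the table of 11289 genes. Cebpd had no row under its symbol and was not analysed here. After the plant lectin concanavalin A (Con A), Cebpa fell to 0.536 of its control level and Foxa3 rose 2.06-fold. In mice that also received stromal cells, Cebpb was at 0.427 and Onecut1 at 0.501 of their levels in the Con A + PBS group.

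Poly(A) RNA of C57BL/6J mouse liver was sequenced as 150-bp paired-end reads in 3 groups of 4 mice, with no transgene named in the labels. The control group is labelled only as control. The Con A + PBS group received 15 mg/kg of Con A, which stimulates T cells and thereby injures the liver, followed 30 min later by PBS. The Con A + hWJ-MSCs group received the same dose of Con A and then, 30 min later, 2000000 human mesenchymal stem cells from Wharton's jelly, the connective tissue of the umbilical cord. Livers were collected at 24 h from mice of 8 to 10 weeks according to the labels, while the study's methods give younger males and fewer cells. The human cells came with no matched control cell type, so the comparison of the Con A groups is between cells and PBS alone.

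The deposited values are whole-number scores that had been normalized between mice, and not counts. Their total per mouse lay between 17649654 and 17657159, the median score was 352 in every mouse, and 10 genes shared the largest score, 341028, in every mouse. The depth of sequencing is therefore unknown, and no counting error can be given. When scores were ordered within each mouse, 82.1% of the ranks held one score in all 12 mice. Scores above 4000 that 1 gene held in every mouse linked 723 of 922 such genes into 8 sets of 85 to 95 genes, and the median GC content of the sets ran from 43.8% to 56.5%. The next such score in the set of Hnf4a was 3.36% to 8.23% above its own. Every gene in the table reached 64 in at least 2 mice, and the lowest score of any of the 8 factors in any mouse was 126, so that none passed through a single group. Scores are not per length, and levels are not compared between genes. Alb, the serum albumin gene that marks hepatocytes, held the largest score in all 12 livers. Con A + PBS mouse 4 stood apart from its group over the whole table, at -55.2 on the second principal component against -15 to 7.57 for the other 3 mice. Without it Cebpa and Foxa3 kept their calls after Con A (limma adjusted p = 0.0135 and 0.0038), and neither Cebpb nor Onecut1 was called between the Con A groups (adjusted p = 0.0886 and 0.0555).

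Hepatocyte identity is held by a small network of DNA-binding proteins that bind each other's promoters and those of the genes for plasma proteins, bile acid synthesis, gluconeogenesis and the urea cycle. HNF4A is a nuclear receptor that acts as a constitutive activator, the C/EBP proteins are leucine zipper factors, the FOXA proteins are forkhead pioneer factors that open chromatin, ONECUT1 (HNF6) is a cut homeodomain protein, and PROX1 is a homeodomain protein that can act as a corepressor of HNF4A. C/EBPα maintains the metabolic program of the resting liver, whereas C/EBPβ and C/EBPδ drive acute phase genes downstream of interleukin-6 and interleukin-1.

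The promoters of the 4 factors that passed the test, and those of Foxa1 and the distal start of Hnf4a, are shown, the last 2 as examples of windows with a match to the motif of a listed factor, and the windows of Foxa2 and Prox1 that hold matches are not printed. Sequences were taken from RefSeq on GRCm38.p6, the same build as mm10, read 5′ to 3′ on the strand of the gene and ending before the first annotated exon, and capitals mark the motif matches. The Cebpa window lies at chr7:35119043-35119292 on the plus strand, and the capitals mark a TATAAA match at -30 to -25 from the start site. That of Cebpb lies at chr2:167688665-167688914 on the plus strand and that of Onecut1 at chr9:74861671-74861920 on the plus strand, with no match in either. That of Foxa1 lies at chr12:57546122-57546361 on the minus strand, with the reverse complement of the FOXA motif TGTTTAC at -141 to -135. That of Foxa3 lies at chr7:19023540-19023789 on the minus strand, with the reverse complement of a kappaB decamer at -49 to -40 and TATAAA at -36 to -31. That of Hnf4a lies at chr2:163506607-163506807 on the plus strand, with the reverse complement of the ONECUT motif ATTGATT at -60 to -54. Positions count from the RefSeq start sites, at 163506857 for Hnf4a and 57546111 for Foxa1. As printed, Hnf4a lacks the last 49 bases before its start site and Foxa1 the last 10.
Cebpa: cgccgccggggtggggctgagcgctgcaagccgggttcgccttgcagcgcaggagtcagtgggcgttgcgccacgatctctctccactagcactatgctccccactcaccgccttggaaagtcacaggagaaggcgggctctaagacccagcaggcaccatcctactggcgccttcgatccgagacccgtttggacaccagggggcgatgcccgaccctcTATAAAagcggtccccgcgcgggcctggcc
Cebpb: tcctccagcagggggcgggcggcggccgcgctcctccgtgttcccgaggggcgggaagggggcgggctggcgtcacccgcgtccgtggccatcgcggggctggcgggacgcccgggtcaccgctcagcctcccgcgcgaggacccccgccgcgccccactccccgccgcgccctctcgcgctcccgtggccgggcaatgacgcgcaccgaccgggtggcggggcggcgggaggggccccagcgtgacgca
Foxa1: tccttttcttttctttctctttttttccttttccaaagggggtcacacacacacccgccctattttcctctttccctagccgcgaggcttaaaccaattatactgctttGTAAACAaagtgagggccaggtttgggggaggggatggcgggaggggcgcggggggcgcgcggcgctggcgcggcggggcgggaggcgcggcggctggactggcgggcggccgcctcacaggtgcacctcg
Foxa3: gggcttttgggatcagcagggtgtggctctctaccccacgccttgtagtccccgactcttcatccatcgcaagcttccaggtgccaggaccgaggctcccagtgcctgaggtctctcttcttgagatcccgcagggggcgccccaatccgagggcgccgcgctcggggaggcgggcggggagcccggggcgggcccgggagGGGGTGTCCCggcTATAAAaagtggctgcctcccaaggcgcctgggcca
Hnf4a: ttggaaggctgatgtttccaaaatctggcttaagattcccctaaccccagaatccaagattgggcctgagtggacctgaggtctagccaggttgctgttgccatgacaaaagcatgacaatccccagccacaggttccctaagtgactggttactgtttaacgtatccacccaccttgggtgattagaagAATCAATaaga
Onecut1: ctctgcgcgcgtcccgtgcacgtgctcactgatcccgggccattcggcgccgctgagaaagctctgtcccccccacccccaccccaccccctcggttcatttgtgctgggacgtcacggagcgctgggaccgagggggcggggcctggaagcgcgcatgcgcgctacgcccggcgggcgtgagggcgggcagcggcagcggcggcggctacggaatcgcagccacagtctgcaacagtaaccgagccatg

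Windows of 250 bases before each RefSeq start site were searched on both strands, 12 windows for the 8 factors with one or more and 32851 windows for all genes. The C/EBP motif TTNNGCAA was found in 0 of the 12 and in 9.56% of all windows, the cyclic AMP element TGACGTCA in 0 and 1.55%, the STAT motif TTCNNNGAA in 0 and 7.02%, and the HNF4 motif CAAAGTCC in 0 and 1.2%. The FOXA motif was found in 1 of the 12 and in 3.17% of all windows, and the kappaB decamer in 1 and 3.9%. The ONECUT motif was found in 2 of the 12, the distal Hnf4a window and the window of a Foxa2 start site at position 148046969, and in 2.61% of all windows. TATAAA was found in 4 of the 12, those of Cebpa, Foxa3, one start of Foxa2 and one start of Prox1, and in 12.4% of all windows. The Cebpb and Onecut1 windows, with no match, were 81.6% and 71.6% G or C. Such matches describe letters in these windows and no more.

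**Figure D1:**
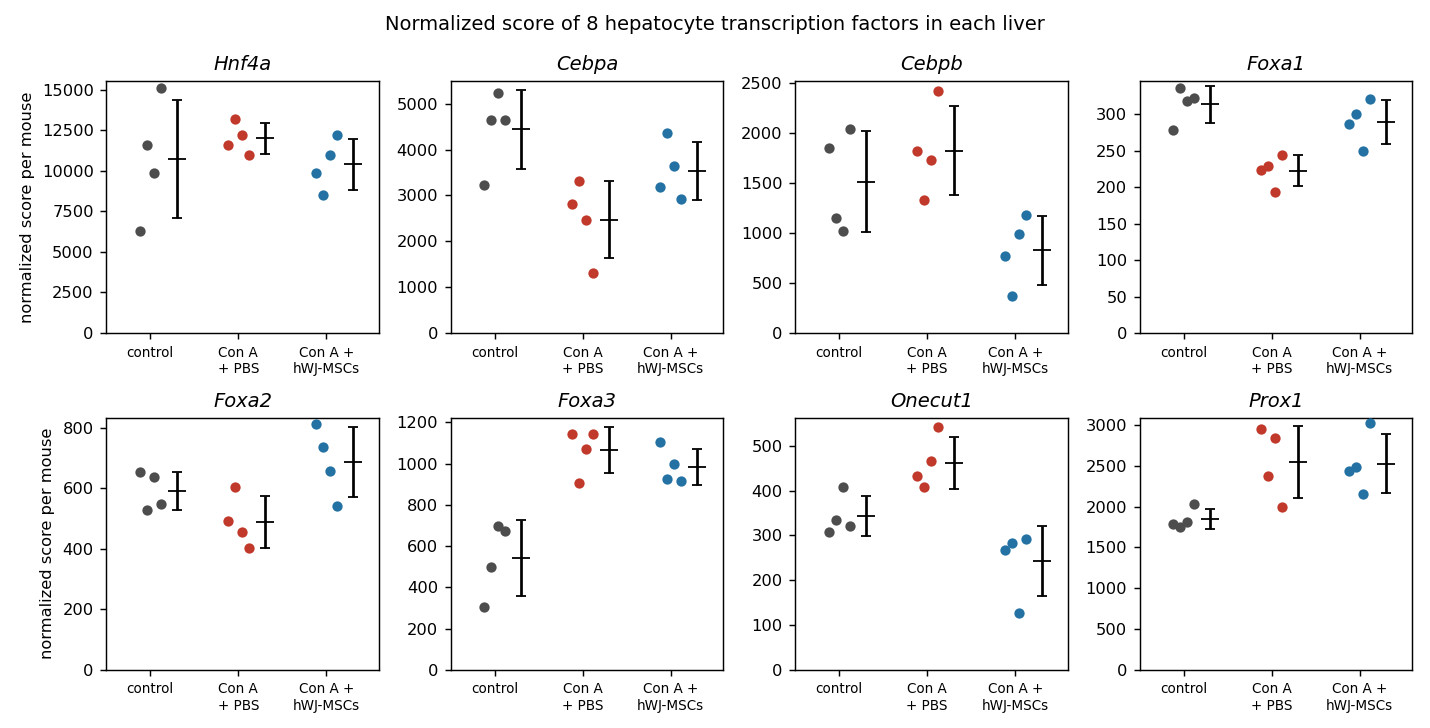
Normalized score (vertical axis, linear from 0, a separate scale for each gene) of the 8 factors in the 4 livers of each group, with points for mice and bars for the mean ± SD. The 4 Con A + PBS mice sit above the 4 control mice for Foxa3 and Onecut1 and below them for Foxa1, and the 4 Con A + hWJ-MSCs mice sit below the 4 Con A + PBS mice for Cebpb and Onecut1.

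Of the 8 factors, 1 was called higher and 1 lower after Con A, against 19.5% and 19.2% of all 11289 genes. A call needed a fold change above 1.5 and a limma p below 0.05 after Benjamini-Hochberg adjustment over the whole table. At any fold, 4 of the 8 passed the adjusted p, against 55.5% of all genes, and the mice of the 2 groups did not overlap for 3 of the 8, against 50.4%. The median log2 change of the 8 was 0.26, and that of all genes 0.05. When hWJ-MSCs were compared with PBS after Con A, 0 of the 8 were called higher by limma and 2 lower, against 4.2% and 4.38% of all genes. At an unadjusted p and any fold, 3 were higher and 2 lower, against 18% and 16.6%. In the same comparison 4 passed the adjusted p at any fold, against 13.2%, and 3 did not overlap, against 23.5%. The medians were -0.06 for the 8 and 0.00 for all genes. Calls in this comparison depended on single libraries across the whole table. From 474 genes higher and 495 lower they dropped to 5 and 2 without Con A + PBS mouse 1, to 8 and 10 without Con A + hWJ-MSCs mouse 2, to 4 and 3 without Con A + hWJ-MSCs mouse 3, and to 136 and 149 without Con A + PBS mouse 4, and they rose to 846 and 729 without Con A + PBS mouse 2. Of 19 genes of the related lists and marker lists called between the Con A groups, 18, all but Hpx, lost their call without Con A + PBS mouse 1, and the same 18 without hWJ-MSCs mouse 2 and without hWJ-MSCs mouse 3. In the hWJ-MSCs mice against the control mice, 1 factor was called higher and 1 lower, against 13.6% and 13.1%, with 3 of the 8 past the adjusted p, against 40.8%, and 3 without overlap, against 37.9%. The medians were -0.05 and 0.04. After Con A, and against control, the share of the 8 was below that of the table in each of these counts. With hWJ-MSCs against PBS it was below for genes called higher and above for the other counts, each of which rests on 4 factors or fewer. The 3 comparisons share their groups, so their counts are not independent.

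**Figure D2:**
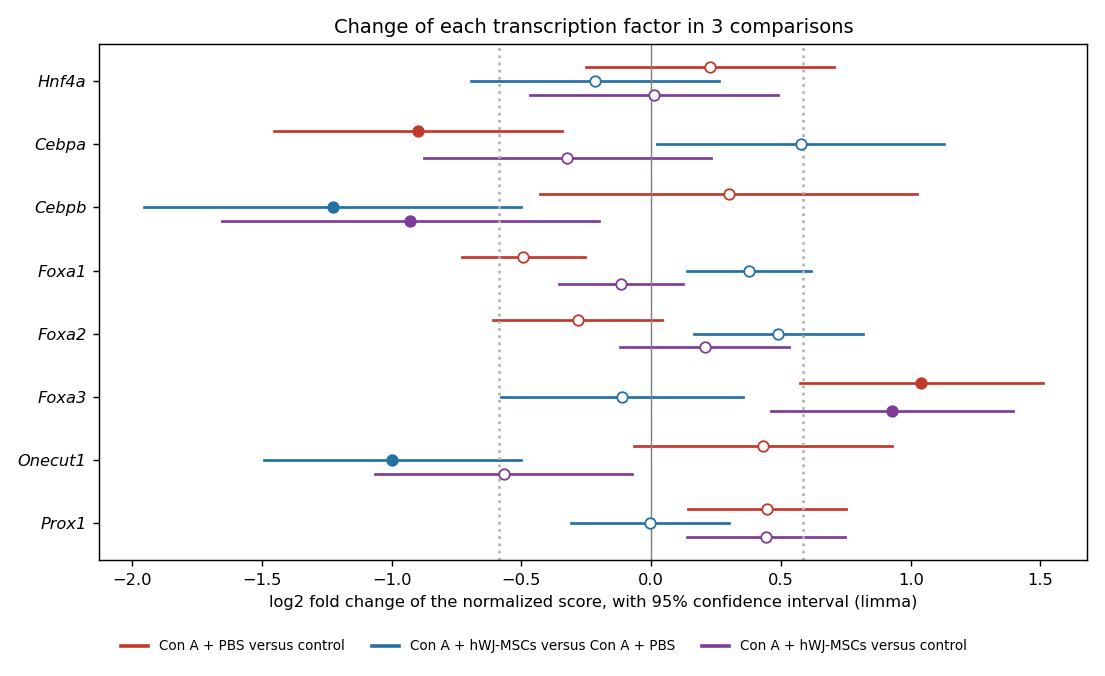
Log2 fold change of the normalized score (horizontal axis) of each of the 8 factors in the 3 comparisons, as the limma estimate with its 95% confidence interval. Filled points were called, open points were not, and dotted lines mark a fold change of 1.5. Cebpa at -0.90 and Foxa3 at 1.04 were called after Con A, and Cebpb at -1.23 and Onecut1 at -0.998 between the Con A groups.

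Hnf4a, the nuclear receptor at the centre of the network, was not called in any comparison. Its scores were 6316, 11588, 9858 and 15086 in the control mice, 11588, 13212, 12210 and 10944 in the Con A + PBS mice, and 9858, 8527, 10944 and 12210 in the Con A + hWJ-MSCs mice. The groups overlapped throughout, and the control mice spanned the widest range. The log2 change after Con A was 0.23 (SE 0.22, 95% confidence interval -0.25 to 0.70, limma adjusted p = 0.397), so that a fall as large as that of Cebpa was outside the interval. It was -0.22 between the Con A groups (interval -0.69 to 0.26, adjusted p = 0.508) and 0.01 between the hWJ-MSCs and control groups (interval -0.47 to 0.49, adjusted p = 0.973). The table places Hnf4a at chr2:163506808-163552635 on the plus strand, the span of a transcript of 3 exons and 431 bases that begins at the distal start site, within a gene that ends at 163572910. Whether the score counts that transcript or the gene is not stated in the sources used here, so the adult liver promoter at 163547155 cannot be told apart from the distal one.

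Of 26 listed genes that HNF4A is known to activate, all in the table, 17 fell and 2 rose after Con A, against 19.2% and 19.5% of all genes, with a median log2 change of -1.51. Apoa2 and Ttr of the list sat at the shared largest score in at least 1 mouse. Cyp8b1 and Cyp7a1, the enzymes that set the cholic acid share and the rate of bile acid synthesis, fell, with log2 changes of -5.98 and -5.69 (limma adjusted p = 0.000492 and 4.11e-06). Cyp8b1 scored 2572 to 4732 in the control mice and 32, 301, 90 and 7 in the Con A + PBS mice, and its change was -5.08 without Con A + PBS mouse 4 and -6.83 without mouse 2, called in both fits. Cyp7a1 scores went from 1768 to 7356 in the control mice to 35 to 119 in the Con A + PBS mice. F11, a coagulation factor, and Mttp, which loads lipid onto apolipoprotein B, rose by 1.22 and 0.81 (adjusted p = 0.000162 and 0.00237). At an unadjusted p with hWJ-MSCs against PBS, 13 of the 26 were higher and 2 lower, against 18% and 16.6% of all genes. By limma 6 were higher than in the Con A + PBS group and 0 lower (median 0.42), against 4.2% and 4.38%. They included Otc, an enzyme of the urea cycle, at 1.68 (adjusted p = 0.027), Slc10a1, the bile acid uptake transporter, at 1.53 (adjusted p = 0.0495), F13b, a coagulation factor subunit, at 1.42 (adjusted p = 0.0255), and Nr1i3, the receptor CAR, at 1.35 (adjusted p = 0.0252). Each of these 4 had fallen after Con A, with log2 changes of -3.21, -2.98, -2.08 and -1.41. Nr1i3 scores were 3751 to 4044 in the control mice, 676 to 2343 in the Con A + PBS mice and 2830 to 4113 in the Con A + hWJ-MSCs mice, so that the last overlapped the first. For Otc, Slc10a1 and F13b the Con A groups overlapped. Otc scored 875 to 1592 in the Con A + PBS and 1582 to 8920 in the hWJ-MSCs mice. With a mouse left out, the calls of Otc, Slc10a1, F13b and Nr1i3 between the Con A groups were lost in 6, 10, 5 and 3 of 12 fits. Against control, 11 of the 26 were lower in the hWJ-MSCs mice and 1 higher, against 13.1% and 13.6% of all genes, with a median of -0.63.

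In bulk liver, fewer hepatocytes and less RNA per hepatocyte cannot be told apart. The summed score of 13 of 14 listed hepatocyte markers ran from 1466225 to 1634329 in the control mice, from 1128210 to 1182418 in the Con A + PBS mice and from 1184039 to 1267787 in the Con A + hWJ-MSCs mice. Of the 13, 4 (Alb, Ttr, Fgb and Cyp2e1) sat at the shared largest score in at least 1 mouse. The sum of the other 9, taken after the values were seen, ran from 653157 to 756326, from 377368 to 421540 and from 421968 to 440216 in the same order. After Con A, 8 of the 13 fell and 1 rose, against 19.2% and 19.5% of all genes, and none was at 0 in any mouse. With hWJ-MSCs against PBS 0 of the 13 were called by limma, against 4.2% higher and 4.38% lower of all genes. At an unadjusted p 2 were higher and 0 lower, against 18% and 16.6%, and the median log2 change was 0.08. The part of hepatocyte number in the changes of the factors was not tested.

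Cebpa, the C/EBP member of the resting liver, encoded by 1 exon at chr7:35119293-35121926 on the plus strand, fell after Con A. Its scores were 3223, 4646, 5239 and 4646 in the control mice, 2816, 3308, 2464 and 1312 in the Con A + PBS mice, and 3192, 4366, 3636 and 2931 in the Con A + hWJ-MSCs mice. Con A + PBS mouse 2, at 3308, lay above control mouse 1, at 3223, and Con A + PBS mouse 4 was the lowest of all. The mean went from 4438.5 ± 857 to 2475 ± 849 (SD, n = 4), a log2 change of -0.90 (SE 0.26, 95% confidence interval -1.45 to -0.35, limma adjusted p = 0.00978). The call held with each mouse left out in turn, with values from -1.07 to -0.62, the last without Con A + PBS mouse 4. With hWJ-MSCs the mean was 3531 ± 628, a log2 difference from Con A + PBS of 0.58 (interval 0.02 to 1.13) that did not pass after adjustment (adjusted p = 0.131) and was 0.30 without Con A + PBS mouse 4, and a difference from control of -0.32 (interval -0.88 to 0.23, adjusted p = 0.334). Taken for each hWJ-MSCs mouse, its distance from the Con A + PBS mean was 49.6%, 99.9%, 70.5% and 35.9% of the Con A change.

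Cebpb, the C/EBP member of the acute phase response, was lower in the hWJ-MSCs mice than in both other groups. Its scores were 1850, 1146, 1017 and 2034 in the control mice, 1814, 1332, 1723 and 2414 in the Con A + PBS mice, and 767, 374, 987 and 1176 in the Con A + hWJ-MSCs mice. All 4 hWJ-MSCs mice lay below all 4 Con A + PBS mice, and 3 of them below the control mice. After Con A the log2 change was 0.30 (SE 0.33, 95% confidence interval -0.43 to 1.02, limma adjusted p = 0.467), which was not called. With hWJ-MSCs against PBS it was -1.23 (interval -1.95 to -0.50, adjusted p = 0.0375) and between the hWJ-MSCs and control groups -0.93 (interval -1.66 to -0.20, adjusted p = 0.0418). The first call was lost in 6 of 12 fits with a mouse left out, those without Con A + PBS mice 1, 3 or 4 or hWJ-MSCs mice 1, 2 or 3 (adjusted p from 0.0255 to 0.0944 over the 12), and the second in 6 of 12, those without control mice 1 or 4, Con A + PBS mice 1 or 3, or hWJ-MSCs mice 1 or 2 (0.0225 to 0.119). Without hWJ-MSCs mouse 2, the lowest, the values were -0.89 and -0.59, and without Con A + PBS mouse 4 the first was -1.08. Both calls also ended in a fit of only the 8 mice compared (adjusted p = 0.0543 and 0.0577), and the second without a variance trend (adjusted p = 0.0502). Of the 1504 bases of the Cebpb exon at chr2:167688915-167690418, 312 overlap exons of Tmem189 on the opposite strand. The library kit is not stated to keep strand, so reads there cannot be assigned. Tmem189 scored 102 to 198 in the control, 272 to 891 in the Con A + PBS and 150 to 284 in the hWJ-MSCs mice, with log2 changes of 1.60 after Con A (adjusted p = 0.0019) and -1.01 between the Con A groups (adjusted p = 0.0654).

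The balance of the C/EBP pair within each liver was taken as log2 Cebpb minus log2 Cebpa. It was -0.801, -2.02, -2.36 and -1.19 in the control mice, -0.634, -1.31, -0.516 and 0.879 in the Con A + PBS mice, and -2.06, -3.54, -1.88 and -1.32 in the hWJ-MSCs mice. Con A + PBS mouse 4 had the highest difference, and the 4 hWJ-MSCs mice lay below the 4 Con A + PBS mice. The difference of means between the Con A groups was -1.8 (two-sided exact permutation p = 0.0286, the smallest that 4 against 4 can give, 0.0686 after adjustment over 12 tests of 4 pairs). It was 1.2 after Con A (exact permutation p = 0.0857, adjusted 0.129) and -0.605 between hWJ-MSCs and control (exact permutation p = 0.371, adjusted 0.405). No pair passed 0.05 after adjustment.

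**Figure D3:**
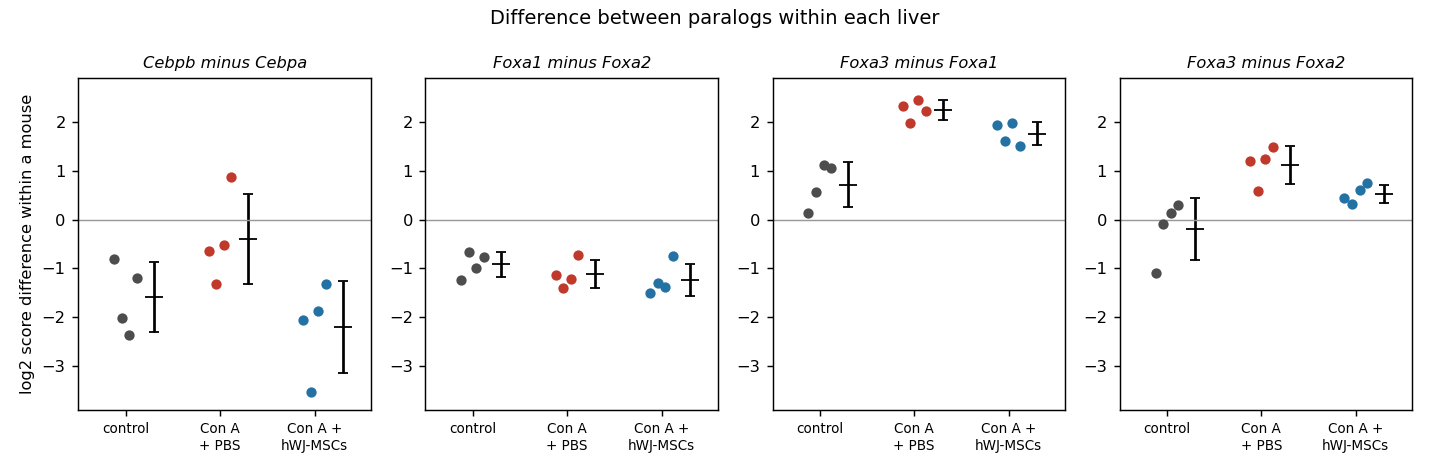
Difference of log2(score + 1) between 2 members of a family within each liver (vertical axis), with points for mice and bars for the mean ± SD of 4. Foxa3 minus Foxa1 and Foxa3 minus Foxa2 are higher in all mice of both Con A groups than in all control mice, and Cebpb minus Cebpa is lower in all hWJ-MSCs mice than in all Con A + PBS mice.

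Partners of the C/EBP proteins changed in both directions. Of 11 listed partners and regulators, 5 rose and 1 fell after Con A (median 0.61), against 19.5% and 19.2% of all genes. With hWJ-MSCs 1 was higher and 2 lower than in the Con A + PBS group (median -0.35), against 4.2% and 4.38%. At an unadjusted p these were 2 and 6, against 18% and 16.6%. Against control, 3 were higher and 1 lower in the hWJ-MSCs mice (median 0.11), against 13.6% and 13.1%. Atf3, a stress-induced zipper protein, rose after Con A and was lower with hWJ-MSCs than with PBS, with log2 changes of 5.15 and -2.64 (limma adjusted p = 5.57e-05 and 0.0321), with scores of 18 to 37 in the control, 372 to 3488 in the Con A + PBS and 64 to 302 in the hWJ-MSCs mice. Without Con A + PBS mouse 4 its changes were 4.51 and -2.002, and the second was not called. Trib1, a pseudokinase that marks C/EBPα for degradation, moved by 1.34 and -0.80 (adjusted p = 0.00024 and 0.0365). Nupr1, a stress-induced chromatin protein, rose by 2.39 (adjusted p = 0.000188) and did not pass between the Con A groups. Cebpe, the C/EBP member of granulocytes, went the other way, at -1.98 and 1.19 (adjusted p = 0.000482 and 0.0457), from scores of only 78 to 136 in the control mice.

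The cytokine signals that induce C/EBPβ and C/EBPδ were represented by 13 of 17 listed genes, with no row for Il6, Osm, Il1b or Tnf. After Con A 6 rose and 3 fell (median 0.41), against 19.5% and 19.2% of all genes. Between the Con A groups 1 was higher and 1 lower (median -0.38), against 4.2% and 4.38%. At an unadjusted p these were 1 and 7, against 18% and 16.6%. Without overlap they were 0 and 5, against 23.5% of all genes in either direction. In hWJ-MSCs against control mice 4 were higher and 3 lower (median 0.03), against 13.6% and 13.1%. Lif, a cytokine of the interleukin-6 family, scored 0 to 2 in the control, 42 to 84 in the Con A + PBS and 6 to 18 in the hWJ-MSCs mice. It reached 64, as every gene in the table did in at least 2 mice, only in the Con A + PBS group. Its row passed through that group alone, so no fold change or p is given for Lif. The counts above include it, as 1 of the 6 that rose and as the 1 lower between the Con A groups. Osmr, the oncostatin M receptor, rose by 2.71 (adjusted p = 1.88e-06). Il1rap, the accessory chain of the interleukin-1 receptor, and Lifr, the LIF receptor, fell, with log2 changes of -2.19 and -1.89 (adjusted p = 3.38e-05 and 4.54e-05), and Il1rap was higher by 1.05 with hWJ-MSCs (adjusted p = 0.0321).

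All 22 listed acute phase targets of C/EBPβ and C/EBPδ were in the table. After Con A, when Cebpb itself was not called, 17 rose and 1 fell (median 1.45), against 19.5% and 19.2% of all genes. Between the Con A groups 1 was higher and 1 lower (median 0.00), near the 4.2% and 4.38% of all genes. In the hWJ-MSCs mice 19 were higher and 1 lower than in the control mice (median 2.19), against 13.6% and 13.1%. Saa3 and Saa2, serum amyloid A genes, rose by 10.09 and 7.22 (limma adjusted p = 4.9e-09 and 4.73e-07), and Saa3 scores of 29668 to 58110 in the hWJ-MSCs mice lay within the 20871 to 72724 of the Con A + PBS mice. With hWJ-MSCs against PBS, the 1 lower was Il1rn, the interleukin-1 receptor antagonist, with a log2 change of -1.2 (adjusted p = 0.0188). In at least 1 mouse, 9 of the 22 sat at the largest score that 10 genes share, Saa2 among them, so that the sizes of their changes were set by the series of scores. The 1 called lower after Con A was C3, the central complement protein, at 341028 in 3 control mice and 147684 in the other 9 mice. The 1 called higher with hWJ-MSCs was Hpx, the haem scavenger hemopexin, at 147377 in all 4 Con A + PBS mice and 341028 in all 4 hWJ-MSCs mice. With one score in all mice of a group and a shared largest score, no fold change or p is given for C3 or Hpx. Of 10 metabolic targets of C/EBPα, 0 rose after Con A by limma, also at an unadjusted p, against 19.5% of all genes called higher. Near the 19.2% of all genes called lower, 2 fell (median -0.14). These were the glucose-6-phosphatase gene G6pc and the liver glycogen synthase gene Gys2, with log2 changes of -1.57 and -1.202 (adjusted p = 0.000188 and 0.00214). Both are also among the HNF4A targets that fell. Gys2 was higher by 0.95 between the Con A groups (limma adjusted p = 0.0396), the 1 call there with 0 lower (median 0.00), against 4.2% and 4.38%. At an unadjusted p 2 were higher and 2 lower, against 18% and 16.6%. Against control the hWJ-MSCs mice had 1 higher and 2 lower (median -0.11), against 13.6% and 13.1%. Alb and Cps1 of that list held one score each in all 12 mice, 341028 and 147960.

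Foxa3, the FOXA member most abundant in adult liver, at chr7:19013282-19023538 on the minus strand, rose after Con A and was above control with hWJ-MSCs too. Its scores were 304, 496, 695 and 674 in the control mice, 1142, 906, 1072 and 1146 in the Con A + PBS mice, and 1104, 924, 996 and 914 in the Con A + hWJ-MSCs mice. All 8 mice given Con A lay above all 4 control mice, and the Con A groups overlapped. The log2 change after Con A was 1.04 (SE 0.22, 95% confidence interval 0.57 to 1.51, limma adjusted p = 0.00142). With hWJ-MSCs it was -0.11 from the Con A + PBS group (interval -0.58 to 0.35, adjusted p = 0.738) and 0.93 from the control group (interval 0.46 to 1.39, adjusted p = 0.00472). Both calls held with each mouse left out in turn, with values from 0.79 to 1.18 and from 0.67 to 1.07. The distance of each hWJ-MSCs mouse from the Con A + PBS mean was -5.4%, 19.2%, 8.86% and 20.8% of the Con A change, with a mean of 10.9% ± 12.1 (SD, n = 4). The same share for Cebpa had a mean of 64.0% ± 27.8 (SD, n = 4), and the difference between these shares was not tested.

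Foxa1 (chr12:57540631-57546121, minus strand) and Foxa2 (chr2:148042877-148045948, minus strand), the pioneer factors that open liver enhancers in the embryo, were not called in any comparison with all mice. Foxa1 scores were 278, 336, 318 and 322 in the control mice, 224, 229, 194 and 244 in the Con A + PBS mice, and 286, 301, 250 and 321 in the hWJ-MSCs mice. The Con A + PBS mice lay below all others, while the hWJ-MSCs and control mice overlapped. The log2 change was -0.49 after Con A (interval -0.73 to -0.25, limma adjusted p = 0.00234) and 0.38 between the Con A groups (interval 0.14 to 0.61, adjusted p = 0.0452), and neither reached a fold of 1.5. The second passed 0.05 in 2 of the 12 fits with a mouse left out. Foxa2 scores were 654, 529, 636 and 547 in the control mice, 493, 605, 454 and 404 in the Con A + PBS mice, and 813, 738, 656 and 542 in the hWJ-MSCs mice. The groups overlapped in every comparison of Foxa2. Its log2 change was -0.28 after Con A (interval -0.61 to 0.04, adjusted p = 0.125) and 0.49 between the Con A groups (interval 0.16 to 0.82, adjusted p = 0.0495), a fold below 1.5. Without Con A + PBS mouse 2 or hWJ-MSCs mouse 4 the second was 0.60 and was called (adjusted p from 0.0221 to 0.129 over the 12 fits).

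The signed difference of Foxa3 from each of its paralogs within a liver was higher in all mice given Con A than in all control mice. Log2 Foxa3 minus log2 Foxa1 was 0.719 ± 0.468 in the control, 2.25 ± 0.206 in the Con A + PBS and 1.76 ± 0.24 in the hWJ-MSCs mice (SD, n = 4). The difference of means was 1.53 after Con A and 1.04 between hWJ-MSCs and control, with no overlap in either case (two-sided exact permutation p = 0.0286 for each, 0.0686 adjusted). Log2 Foxa3 minus log2 Foxa2 was -0.192 ± 0.628, 1.13 ± 0.39 and 0.53 ± 0.187 in the same order (SD, n = 4), with differences of 1.32 and 0.722 from control (exact permutation p = 0.0286 for each, 0.0686 adjusted). For hWJ-MSCs against PBS the differences were -0.489 and -0.603, with overlap (exact permutation p = 0.0571 and 0.0857, adjusted 0.114 and 0.129). Foxa1 minus Foxa2 overlapped between all groups (exact permutation p from 0.171 to 0.543).

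Of 10 known FOXA targets, all in the table, 2 rose and 2 fell after Con A (median 0.05), near the 19.5% and 19.2% of all genes. Between the Con A groups 0 were higher by limma and 1 lower (median -0.35), against 4.2% and 4.38%. At an unadjusted p these were 1 and 3, against 18% and 16.6%. In hWJ-MSCs against control mice 2 were higher and 2 lower (median -0.11), against 13.6% and 13.1%. Igfbp1, a binding protein of insulin-like growth factors, rose after Con A and was lower with hWJ-MSCs than with PBS, with log2 changes of 2.50 and -2.71 (limma adjusted p = 0.00928 and 0.0327), with scores of 656 to 4190, 4374 to 29668 and 720 to 3859 in the 3 groups. Afp, the fetal albumin relative alpha-fetoprotein, rose by 1.68 from scores of 18 to 32 (adjusted p = 0.000121). G6pc and Ttr, the thyroid hormone carrier transthyretin, fell, with log2 changes of -1.57 and -1.55 (adjusted p = 0.000188 and 0.0108). Both are also among the HNF4A targets that fell, and G6pc among the C/EBPα targets, so these are not separate falls. Ttr scored 341028, the shared largest score, in control mouse 1, 72623 in the other 3 control mice and 34256 to 44292 in the Con A + PBS mice.

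Onecut1, which activates Hnf4a and Foxa2 in the developing liver, was lower with hWJ-MSCs than after Con A alone. Its scores were 308, 334, 408 and 322 in the control mice, 433, 409, 466 and 542 in the Con A + PBS mice, and 268, 282, 126 and 292 in the hWJ-MSCs mice. The 3 groups did not overlap, with the Con A + PBS mice highest and the hWJ-MSCs mice lowest, and hWJ-MSCs mouse 3 stood apart. The log2 difference between the Con A groups was -0.998 (SE 0.23, 95% confidence interval -1.49 to -0.50, limma adjusted p = 0.0255). After Con A it was 0.43 (interval -0.06 to 0.93, adjusted p = 0.126), a fold below 1.5 whose adjusted p was 0.0197 in a fit of only the 8 mice compared and ran from 0.00941, without hWJ-MSCs mouse 3, to 0.248 with a mouse left out, and between hWJ-MSCs and control -0.57 (interval -1.06 to -0.07, adjusted p = 0.0642). The call was lost in 4 of 12 fits with a mouse left out, those without Con A + PBS mice 1 or 4 or hWJ-MSCs mice 2 or 3 (adjusted p from 0.0201 to 0.0752 over the 12), and the value was -0.71 without hWJ-MSCs mouse 3 and -0.92 without Con A + PBS mouse 4. Against control, the value was -0.28 without hWJ-MSCs mouse 3, and a call was gained without hWJ-MSCs mouse 2 or 4 (-0.67 and -0.68, adjusted p = 0.0483 and 0.0454, from 0.0454 to 0.15 over the 12). At chr9:74861921-74891781 on the plus strand, 2171 of the 4113 exon bases of Onecut1 are shared with Gm20649, a noncoding RNA on the same strand that has no row in the table.

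Prox1 (chr1:190118035-190170714, minus strand), which restrains HNF4A in hepatocytes and also marks lymphatic endothelium, was higher in both groups given Con A, below a fold of 1.5. Its scores were 1791, 1748, 1816 and 2034 in the control mice, 2954, 2369, 2844 and 2000 in the Con A + PBS mice, and 2432, 2485, 2158 and 3024 in the hWJ-MSCs mice. All 4 hWJ-MSCs mice lay above the control mice, and Con A + PBS mouse 4, at 2000, lay within them. The log2 change was 0.45 after Con A (interval 0.14 to 0.75, limma adjusted p = 0.0168), 0.44 with hWJ-MSCs against control (interval 0.14 to 0.75, adjusted p = 0.0241) and 0.00 between the Con A groups (interval -0.31 to 0.30, adjusted p = 0.994). Over the 12 fits with a mouse left out, the adjusted p of the first ran from 0.00322 to 0.0571 and that of the second from 0.00923 to 0.0714, so that neither passed 0.05 in every fit. The summed score of 8 of 10 listed sinusoidal and lymphatic endothelial markers went from 3014 to 4266 in control to 1593 to 2182 in Con A + PBS and 1776 to 2348 in hWJ-MSCs mice, with 5 of the 8 lower and 1 higher after Con A and none at 0. These counts stand against 19.2% and 19.5% of all genes. The largest falls were those of the sinusoidal genes Clec4g and Kdr. Clec4g scored 493 to 812 in the control, 3 to 16 in the Con A + PBS and 12 to 47 in the hWJ-MSCs mice. It reached 64 in control mice alone, so its row passed through that group and no fold change or p is given. Kdr had a log2 change of -2.52 (limma adjusted p = 4.85e-05). The 1 higher was Lyve1, a marker of both sinusoidal and lymphatic endothelium, with scores of 72 to 134 in control, 196 to 252 in Con A + PBS and 105 to 139 in hWJ-MSCs mice and a log2 change of 1.29 after Con A (adjusted p = 0.000105). The part of endothelial cells in the Prox1 scores was not tested. For hWJ-MSCs against PBS 1 of the 8 was higher and 2 lower, against 4.2% and 4.38% of all genes. Stab2 was higher by 0.59 (limma adjusted p = 0.0199). Lyve1 and Cdh5 were lower, with log2 changes of -0.90 and -0.66 (limma adjusted p = 0.0224 and 0.0443). The calls of Stab2, Lyve1 and Cdh5 were lost in 4, 3 and 9 of 12 fits with a mouse left out. Pdpn and Ccl21a, which define lymphatic endothelium, had no row. The antisense gene Prox1os, which shares 133 of 8390 exon bases with Prox1, had log2 changes of -1.36 after Con A and 1.07 with hWJ-MSCs against PBS (adjusted p = 0.000486 and 0.0253), at scores of 116 to 142, 28 to 72 and 80 to 114, and reads in the shared bases cannot be assigned without strand.

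**Figure D4:**
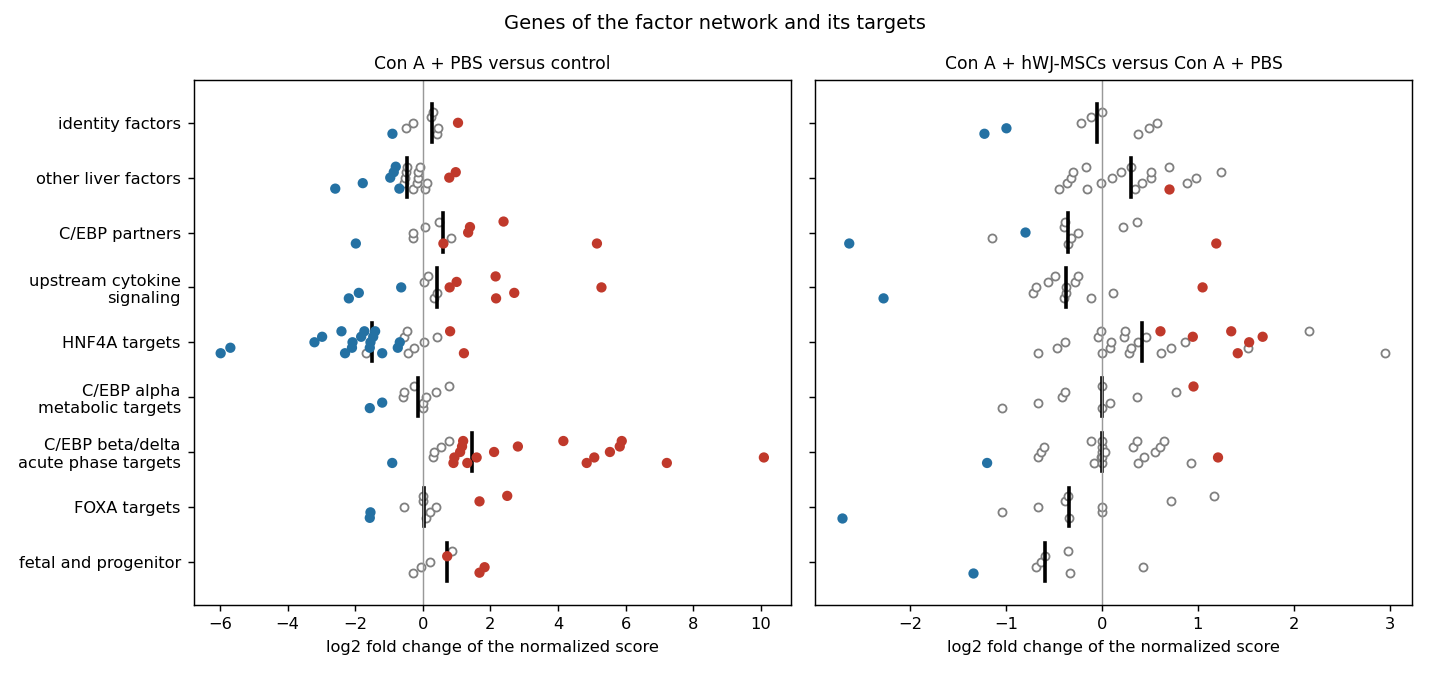
Log2 fold change (horizontal axis, a separate scale for each panel) of the 8 factors and of the genes of 8 related lists after Con A (left) and between the Con A groups (right). Filled red points were called higher, filled blue points called lower, open points were not called, and black bars are medians, which lie at -1.51 for the HNF4A targets and 1.45 for the acute phase targets after Con A.

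Beyond the 8 factors, 19 other liver-enriched transcription factors were all in the table. After Con A 2 rose and 6 fell (median -0.48), against 19.5% and 19.2% of all genes. Between the Con A groups 1 was higher and 0 lower by limma (median 0.31), against 4.2% and 4.38%. At an unadjusted p these were 7 and 1, against 18% and 16.6%. In hWJ-MSCs against control mice 2 were higher and 3 lower (median -0.29), against 13.6% and 13.1%. Nr0b2, the bile acid-induced corepressor SHP, and Klf15, a fasting-induced regulator of amino acid use, fell, with log2 changes of -2.59 and -1.78 (limma adjusted p = 0.00593 and 9.9e-05). Nr0b2 scored 935 to 1029 in the control, 22 to 369 in the Con A + PBS and 300 to 481 in the hWJ-MSCs mice, with the 22 in Con A + PBS mouse 4, without which its change was -1.65 and still called. Creb3l3, a membrane-bound factor of the hepatocyte stress response, and Gata6 rose by 0.97 and 0.78 (adjusted p = 0.000319 and 0.00411), and Gata6 was below a fold of 1.5 without Con A + PBS mouse 4 (0.58). Nr2f2, the receptor COUP-TFII, fell after Con A and was higher with hWJ-MSCs than with PBS, with log2 changes of -0.69 and 0.70 (adjusted p = 0.00189 and 0.0233).

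Only 7 of 17 listed fetal and progenitor genes were in the table. After Con A 3 rose and 0 fell by limma (median 0.72, also 3 and 0 at an unadjusted p), against 19.5% and 19.2% of all genes. Between the Con A groups 0 were higher and 1 lower (median -0.60), against 4.2% and 4.38%. At an unadjusted p these were 0 and 3, against 18% and 16.6%. In hWJ-MSCs against control mice 2 were higher and 2 lower (median 0.52), against 13.6% and 13.1%. Sox9, a factor of bile duct and progenitor cells, rose by 1.83 from scores of 112 to 180 to scores of 290 to 881 (limma adjusted p = 0.000126). Prom1, a membrane protein of progenitor and duct cells, was lower with hWJ-MSCs than with PBS, with a log2 change of -1.34 (adjusted p = 0.0198).

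The genes nearest in profile to each factor were found over the 12 mice from log2(score + 1) less the control mean of the gene, by the root mean square difference. Creb3l3, at 0.2, was one of the 3 nearest genes to Foxa3, with Qsox1 (0.165) and Orc2 (0.181). C8b, a complement subunit made by hepatocytes, was nearest to Cebpa at 0.149, followed by St3gal3 (0.155) and Cdh2 (0.156). Xylb (0.118), Poldip2 (0.124) and Cables2 (0.13) were nearest to Foxa1. Mrps24 (0.126), Zfp706 (0.132) and Hsbp1 (0.132) were nearest to Foxa2. Extl3 (0.135), Man1b1 (0.151) and Mlf2 (0.157) were nearest to Hnf4a. Rmdn3 (0.121), Necap1 (0.121) and Lgals8 (0.134) were nearest to Prox1. Cebpb and Onecut1 had looser neighbours, Spry4 (0.345), Timp3 (0.391) and Adamtsl4 (0.396) for Cebpb and Klhl28 (0.187), Ccrn4l (0.27) and Rbm41 (0.289) for Onecut1.

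Markers of other cells moved with Con A, when 19.5% of all genes were called higher and 19.2% lower. The summed score of 10 of 11 Kupffer cell and macrophage markers went from 5813 to 9268 in control to 1801 to 2676 in Con A + PBS and 906 to 2583 in hWJ-MSCs mice, with 9 of the 10 lower and 1 higher after Con A and none at 0. That of 11 of 12 neutrophil and monocyte markers went from 1068 to 1471 to 2189 to 3387 and 2219 to 3926, with 10 higher and 1 lower, and Retnlg and Mmp8 were at 0 in at least 1 mouse. That of 3 of 11 T cell markers went from 90 to 147 to 245 to 358 and 154 to 243, with 2 higher, no row for Cd3e, Cd4 or Trac, and Cd8a at 0 in at least 1 mouse. That of 4 of 8 cholangiocyte markers ran from 2628 to 4803, 2604 to 13469 and 2564 to 6862, with 1 higher and 0 lower by limma (1 and 1 at an unadjusted p), and that of all 8 stellate cell markers from 5173 to 8190, 6410 to 7485 and 4802 to 10104, with 0 higher and 3 lower by limma (1 and 3 at an unadjusted p), and no marker of either list was at 0. With hWJ-MSCs against PBS 0 markers of these 5 lists were called by limma, and at an unadjusted p 1 higher and 1 lower each among the cholangiocyte and the Kupffer cell and macrophage markers, 3 higher and 1 lower among the stellate cell markers, and 0 among the others. Of all genes, 4.2% were called higher and 4.38% lower there, and 18% and 16.6% were so at an unadjusted p. C/EBPβ is also made by myeloid cells, and the part of cell composition in the changes of Cebpb, Cebpa, Foxa3 and Onecut1 was not tested.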

How the data were processed

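Liver RNA of 12 mice in 3 groups of 4 was analysed, with groups and mouse numbers taken from the sample labels. The authors deposited a whole-number score per gene and mouse, already normalized between mice, in mm10 coordinates. The submitters' processing notes name Bowtie2 2.2.1 and RSEM 1.2.18, and the method of normalization is not given in the sources used here. Many of the highest scores recurred in every mouse, and the genes that held them were linked into sets, which differed in GC content (GENCODE M21 transcripts). Changes are therefore relative to other genes.

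The model, limma 3.58.1 under R 4.3.3 with lmFit and a trended eBayes, used log2(score + 1) of all 12 mice in one fit without covariates, with Benjamini-Hochberg adjustment over 11289 genes. The DESeq2 test of the study needs counts and was not run. Paralog pairs were compared by two-sided exact permutation tests (scipy 1.17.1, Python 3.11.15). Factors, gene lists, motifs and tests were chosen with earlier results of these data known. Some genes stand on more than 1 list, so the counts of the lists are not independent. Cell marker lists are given by sums and counts, apart from the endothelial list, although the rule covers them. From each other list the text names the 2 called genes with the largest rise and the 2 with the largest fall after Con A, and up to 4 called between the Con A groups, and for each factor the 3 nearest profiles. Tmem189 and Prox1os are named for their overlap with factors. Alternatives were another pseudocount (10), a filter (mean score of 100 or more), 2 other scalings, an untrended variance, a fit of only the 8 mice compared, the unadjusted p, a fold above 2, the replicate block and each mouse left out. A call without the fold limit was chosen after seeing the data.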

Additional observations from a re-analysis of the deposited data

Results flagged for a closer look

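In the Con A + hWJ-MSCs group, the Onecut1 score of mouse 3, 126, lay far from those of the other 3 mice, 268, 282 and 292, with a gap of 0.855 of the range of the group that is above Dixon's 95% critical value for 4 mice. Without that mouse the log2 difference of Onecut1 between the Con A groups was -0.71 (limma adjusted p = 0.0547). It was the 1 value singled out among 24 groups of 4 mice (8 factors in 3 groups), and chance alone does so in about 1 of 20 groups.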

How the results depend on the processing

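After Con A, the 2 called factors became 1 at a fold above 2 and 4 without a fold limit, and stayed at 2 with each mouse left out. Between the Con A groups, the 2 became 1 with only the 8 mice compared, 1 at a fold above 2 and 4 without a fold limit, and ranged from 0 to 3 with a mouse left out. Between hWJ-MSCs and control, the 2 became 1 without a variance trend, 1 with only the 8 mice compared and 0 at a fold above 2, and ranged from 1 to 3 with a mouse left out. The factor lost without a trend and with only the 8 mice was Cebpb in each case. The pseudocount of 10, the filter at a mean of 100, both scalings and the unadjusted p moved none of these 3 counts. The smallest pair p is 0.0571 with 3 against 4 mice. Uncalled values near 0 changed sign with a mouse left out: Hnf4a after Con A ranged from -0.003567, without control mouse 1, to 0.4151, Hnf4a against control from -0.2198 to 0.1989, and Prox1 between the Con A groups from -0.1129 to 0.07462.

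Same-numbered mice were different animals, and the correlation of their deviations from the group means ran from -0.118 to 0.375, so the numbers were not taken as pairs. With the replicate block all 24 changes of the factors kept their call. For the block, paralog pairs were counted when the differences between same-numbered mice all had the same sign, which is weaker than no overlap of the groups. That held for 3 pairs between the Con A groups, 3 after Con A and 2 against control. Without overlap, 1, 2 and 2 pairs were separated in the same order. The criteria differ, so the higher counts do not show an effect of the block. With a mouse left out, 1 to 3 were separated between the Con A groups and 2 to 3 in each of the other comparisons. Over all genes, the calls between the Con A groups went from 474 higher and 495 lower to 679 and 618 with the block, 910 and 787 at the unadjusted p, 163 and 190 at a fold above 2, and 734 and 751 without a fold limit. At a fold above 2 the calls were 1107 and 1284 after Con A, and 733 and 806 against control.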
